A study of Homo sapiens with 6 samples.

Results

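The genes described here encode the core proteins of the spliceosomal small nuclear ribonucleoproteins (snRNPs): the Sm and LSM rings, the proteins particular to the U1, U2, U4/U6, U5 and minor-class particles, the SF3 complexes with the U2AF factors, and the PRPF factors. They were chosen by symbol from a list of 44 names grouped by function. No measured value enters that rule, but the list was drawn up with earlier results of these data known. All 44 names were found among the 61860 genes of the count table. All 44 also passed the filter on low counts, after which 18740 genes were tested.

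The cells were 786-O, a human clear cell renal carcinoma line without a working VHL gene, and their total RNA was depleted of ribosomal RNA before sequencing. The control group held 3 libraries of cells stably expressing a control shRNA, and the knockdown group held 3 libraries of cells stably expressing an shRNA targeting METTL3. METTL3 is the catalytic part of the methyltransferase that places N6-methyladenosine (m6A) in messenger RNA. No other agent is named for either group, and whether separate cultures or clones stand behind the libraries of a group is not stated in the labels. The p-values therefore measure only how far these libraries differ, which may be technical. The libraries of each group are called A, B and C after the table's columns, and values are given in that order. The knockdown columns carry a number that no label explains and were assigned to the METTL3 shRNA by elimination.

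Total counts were 100534896 to 103624456 per library. METTL3 itself stood at 37.2, 38.1 and 37.6 CPM (counts scaled to a common effective library total) in the control libraries and at 11.3, 9.84 and 11.4 CPM in the knockdown libraries, a fall of 71.2% (log2 fold change −1.80, SE 0.08, edgeR adjusted p = 1.45e-07). Of renal epithelial markers, PAX8 and KRT8 were detected in every library at 143 to 186 and 159 to 194 CPM of the plain library total, and KRT18 and CDH2 at 89.8 to 118 and 183 to 202 CPM. PAX2 had 4572 to 4879 counts in the control and 3507 to 3929 in the knockdown libraries, and CDH6 was low at 128 to 184 counts over all libraries. VIM, a mesenchymal filament gene, had 131916 to 171530 counts in the control and 226765 to 319411 in the knockdown libraries. Of 10 markers of leukocytes, endothelium, fibroblasts and smooth muscle, 1, the T cell gene CD3E, had no count in any library. CD68, which also marks lysosomes, had 5393 to 6073 counts in the control and 8781 to 11116 in the knockdown libraries, and the 10 together summed to 15625 to 17411 and to 17471 to 19706 counts. The smooth muscle gene ACTA2 had 9681 to 11716 counts in the control and 8500 to 9125 in the knockdown libraries. Without CD68 and ACTA2 the sums were 252 to 302 and 90 to 134 counts. Most of these were of PDGFRB, with 218 to 239 and 72 to 116 counts, and of LUM, with 27 to 53 and 8 to 14. The part of these markers in the results was not tested. Mitochondrially encoded genes took 4.23 to 4.75% of counts in the control libraries and 7.77 to 8.496% in the knockdown libraries. The number of core snRNP genes that fell was 14 with these genes included and 14 with them left out.

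The spliceosome removes introns from pre-messenger RNA and is built from snRNPs, each a small nuclear RNA with its proteins. U1 recognises the 5′ splice site and U2 the branch site, and the preassembled U4/U6 and U5 tri-snRNP then joins, after which U4 is unwound from U6 and the catalytic centre forms. Sm proteins form a ring of 7 subunits on the U1, U2, U4 and U5 RNAs, and LSM2 to LSM8 form a like ring on the tail of U6.

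Short stretches of promoter are shown for 4 genes, because motifs common to these promoters can be seen in them and because the first 3 genes fell in the knockdown while SNRNP200 did not pass the test. Each is the 150 bases up to the base before the RefSeq start of the gene (GRCh38.p14), read 5′ to 3′ on the strand of the gene, and capitals mark matches to the ETS, NRF1, CCAAT and GC-box motifs defined further on. The stretch of SNRPG lies at chr2:70293459-70293608 on the minus strand, that of PRPF6 at chr20:63980982-63981131 on the plus strand, that of SNRNP40 at chr1:31296789-31296938 on the minus strand and that of SNRNP200 at chr2:96305547-96305696 on the minus strand. The stretch of SNRPG lies inside the gene's GENCODE span, since some of its transcripts start upstream of the RefSeq start, but it overlaps no annotated exon.
SNRPG: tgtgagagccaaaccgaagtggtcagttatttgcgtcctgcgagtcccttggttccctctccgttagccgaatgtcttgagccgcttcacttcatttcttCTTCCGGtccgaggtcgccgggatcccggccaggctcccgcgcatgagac
PRPF6: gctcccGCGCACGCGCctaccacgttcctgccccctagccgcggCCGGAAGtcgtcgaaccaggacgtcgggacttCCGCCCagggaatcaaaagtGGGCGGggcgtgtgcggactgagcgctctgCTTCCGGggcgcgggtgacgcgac
SNRNP40: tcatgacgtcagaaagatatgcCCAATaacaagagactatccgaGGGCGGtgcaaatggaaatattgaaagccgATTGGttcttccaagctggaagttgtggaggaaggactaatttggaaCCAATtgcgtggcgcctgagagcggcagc
SNRNP200: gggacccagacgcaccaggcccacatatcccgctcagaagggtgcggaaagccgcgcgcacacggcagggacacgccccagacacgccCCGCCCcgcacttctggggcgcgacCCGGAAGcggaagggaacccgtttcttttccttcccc

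Of the 44 core snRNP genes, 14 (31.8%) fell in the METTL3 knockdown and 30 did not pass the test, by the quasi-likelihood test of edgeR at an adjusted p of 0.05 (Benjamini-Hochberg over all tested genes). Over all 18740 genes tested, 16.9% fell and 16.5% rose by the same rule, 33.5% in all. Among the 10956 genes with a mean of at least 5 CPM, a level that all 44 core snRNP genes reached, 21.1% fell and 19.2% rose. None of the 44 rose by edgeR, at an adjusted or an unadjusted p under 0.05, nor by DESeq2 or limma-voom, and 17 were lower at an unadjusted p under 0.05. The falls were modest: SNRPA of the U1 snRNP had the largest, 32.0%, followed by the Sm protein SNRPD1 at 26.5% and the U5 protein SNRNP40 at 25.3%.

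Across all 44, the log2 fold change (knockdown minus control) ran from −0.56 to 0.13 with a median of −0.13, against a median of −0.00297 over all tested genes and −0.02 over those of at least 5 CPM. Its sign was negative for 39 of 44 (88.6%), against 50.3% of all tested genes and 53.1% of those of at least 5 CPM. In 19 of 44 genes every knockdown library lay below every control library, where 23.9% of all tested genes did so. In 0 of 44 did every knockdown library lie above, where 23.4% of all tested genes did so. Summed over the 44 genes, expression was 4822, 4677 and 4747 CPM in the control libraries and 4342, 4251 and 4238 CPM in the knockdown libraries, without overlap.

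**Figure D1:**
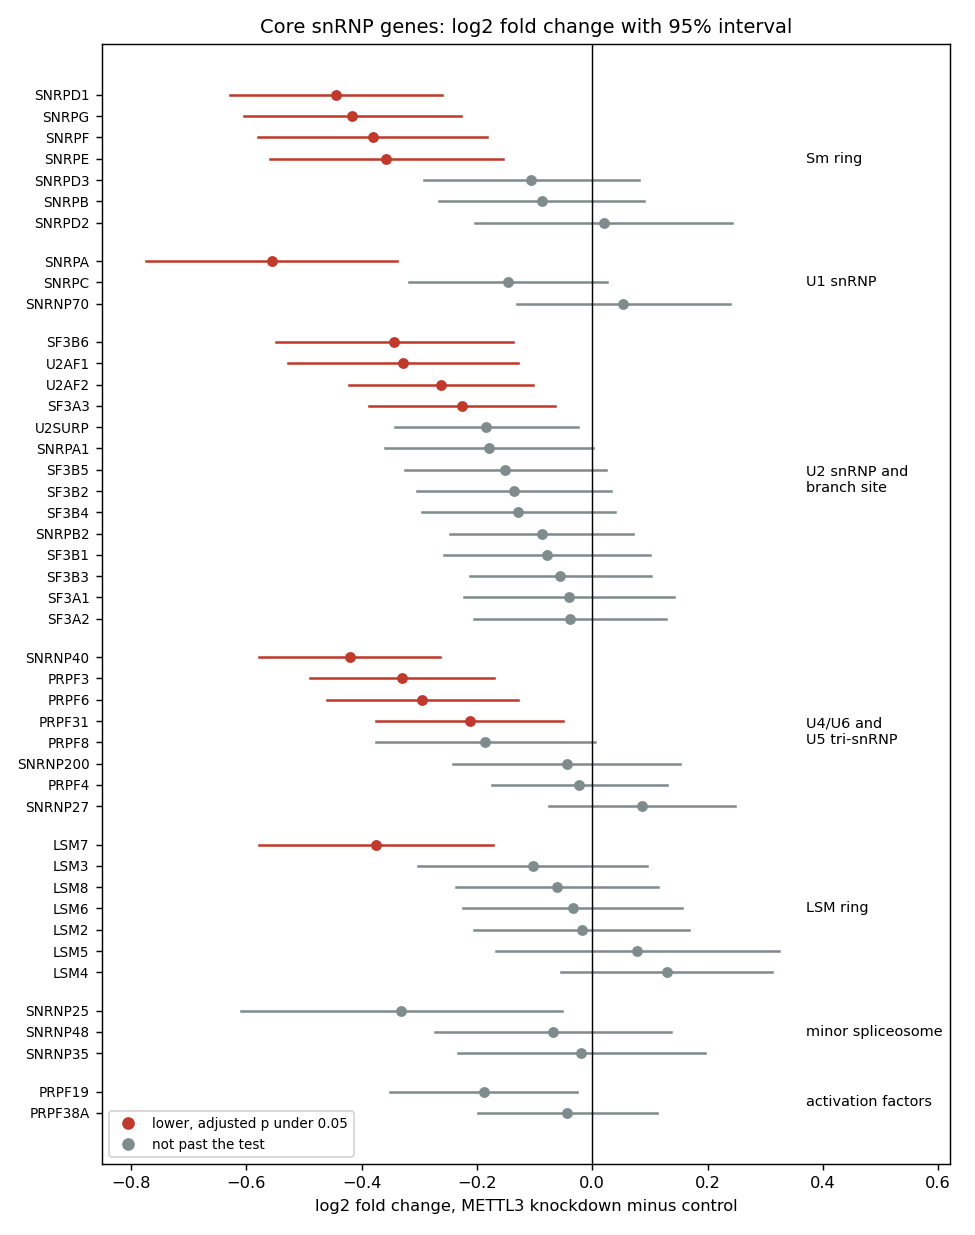
Log2 fold change (knockdown minus control) of each of the 44 core snRNP genes, grouped by role, with 95% intervals from the edgeR fit over 3 libraries a group. The 14 genes past the threshold all lie left of 0, with SNRPA at −0.56 farthest, and the 30 others range up to LSM4 at 0.13.

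The Sm ring had 4 of its 7 genes lower: SNRPD1, SNRPE, SNRPF and SNRPG. The median log2 fold change of the 7 was −0.36. SNRPE, SNRPF and SNRPG encode the subcomplex of 3 Sm proteins that joins the ring as a unit, and all 3 fell. SNRPD1 encodes the partner of SNRPD2 in the ring and also fell, whereas SNRPD2 did not pass the test, nor did SNRPB and SNRPD3, whose proteins pair with each other.

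SNRPD1 (chromosome 18, 21612267 to 21633524, plus strand, 4 exons) stood at 81.0, 78.2 and 76.4 CPM in the control libraries and at 64.6, 52.3 and 56.2 CPM in the knockdown libraries. SNRPG (chromosome 2, 70281362 to 70293771, minus strand, 4 exons) stood at 66.8, 67.7 and 67.3 CPM against 56.6, 44.7 and 49.9 CPM. In both genes the control libraries lay close together and all 3 knockdown libraries were lower, B the lowest. The log2 fold change was −0.44 (SE 0.09, edgeR adjusted p = 0.00182) for SNRPD1. For SNRPG it was −0.42 (SE 0.09, edgeR adjusted p = 0.00306). SNRPF (chromosome 12, 95858928 to 95903828, plus strand, 4 exons) stood at 46.7, 44.3 and 45.1 CPM in the control libraries and at 40.1, 31.2 and 33.1 CPM in the knockdown libraries, with knockdown A nearest to the controls. It fell by 23.2% (log2 fold change −0.38, SE 0.09, edgeR adjusted p = 0.00710). Its exons overlap those of CCDC38 on the opposite strand by 114 bases, and CCDC38 stood at 0.322% of its CPM.

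SNRPE (chromosome 1, 203861603 to 203870550, plus strand, 5 exons) stood at 66.9, 78.2 and 66.5 CPM in the control libraries and at 61.1, 49.3 and 54.8 CPM in the knockdown libraries. Control B was high and knockdown B low, and the groups did not overlap. The fall was 21.9% (log2 fold change −0.36, SE 0.09, edgeR adjusted p = 0.0111). This call rests on those libraries, since the adjusted p was 0.0657 without control B and 0.0677 without knockdown B, and the log2 fold change was −0.28 in both.

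The other Sm genes overlapped between the groups in CPM. SNRPB stood at 200.1, 198 and 177 CPM in the control libraries and at 194, 171 and 177 CPM in the knockdown libraries (log2 fold change −0.09, 95% interval −0.27 to 0.09). SNRPD2 stood at 131, 128 and 104 CPM against 138, 119 and 111 CPM (log2 fold change 0.02, 95% interval −0.20 to 0.24). These intervals do not reach the falls estimated for SNRPD1 and SNRPG, but differences between genes were not tested. SNRPD3 stood at 62.6, 63.4 and 55.6 CPM against 62.3, 53.8 and 52.6 CPM (log2 fold change −0.11, 95% interval −0.29 to 0.08). Its exons overlap those of GGT1 on the same strand by 306 bases and of GUCD1 on the opposite strand by 321, and these stood at 225% and 132% of its CPM.

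The deposited FPKM values are scaled to transcript length, but the lengths used were not found in the sources. Any ranking of genes by FPKM depends on those lengths. On this scale the Sm genes spanned a wide range in the control libraries. SNRPD2 was the highest of all 44 core snRNP genes at 525 ± 55.2 FPKM (SD, n = 3). SNRPF at 266 ± 6.40, SNRPB at 248.8 ± 11.0, SNRPG at 226 ± 5.91 and SNRPE at 167 ± 28.95 FPKM (SD, n = 3) came next within the ring. The levels of SNRPF and SNRPB differed by little more than their spread, while SNRPD1 at 61.9 ± 0.846 and SNRPD3 at 29.7 ± 3.41 FPKM (SD, n = 3) were well below. In the knockdown libraries SNRPF was at 188 ± 22.8, SNRPG at 157 ± 17.4, SNRPE at 110 ± 9.09 and SNRPD1 at 40.5 ± 3.48 FPKM (SD, n = 3). SNRPD3, at 31.7 ± 4.97 FPKM (SD, n = 3) in the knockdown libraries, has the opposite sign on this scale, and neither scale gives a call.

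**Figure D2:**
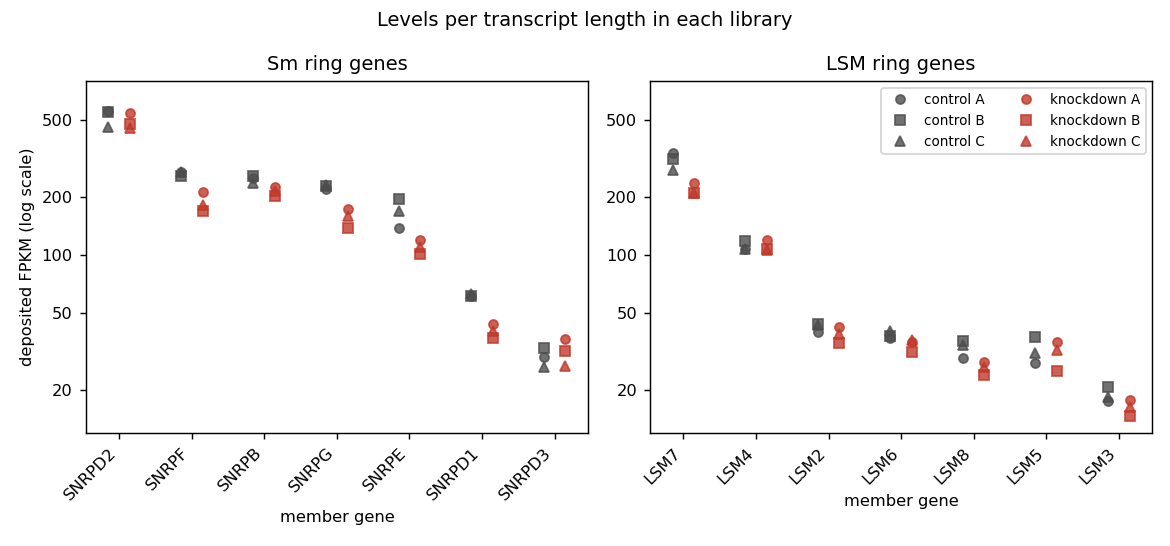
FPKM on a log axis of the 7 Sm genes and the 7 LSM ring genes in each of the 3 control and 3 knockdown libraries. SNRPD1, SNRPE, SNRPF, SNRPG and LSM7, the genes called lower, show separated groups, while SNRPD2 at the top of the Sm genes and LSM4 show overlapping ones. SNRPB, LSM6 and LSM8, which were not called, also show separated groups on this scale, though they overlap in CPM.

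The LSM ring, whose proteins share the Sm fold, had 1 of its 7 genes lower, and its median log2 fold change was −0.03. LSM2 to LSM7 also belong to a cytoplasmic ring with LSM1 that takes part in messenger RNA decay, whereas LSM8 marks the nuclear ring. LSM7 (chromosome 19, 2321517 to 2328620, minus strand, 4 exons) stood at 76.5, 70.5 and 60.9 CPM in the control libraries and at 58.6, 51.5 and 50.2 CPM in the knockdown libraries. The lowest control library was only slightly above the highest knockdown library, but the groups did not overlap. LSM7 fell by 22.9% (log2 fold change −0.375, SE 0.09, edgeR adjusted p = 0.00864), and its exons overlap by 6 bases those of SPPL2B, which stood at 104% of its CPM on the opposite strand.

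The other 6 LSM genes had log2 fold changes from −0.10 (LSM3) to 0.13 (LSM4), all with overlapping groups in CPM. LSM4 stood at 91.4, 94.2 and 83.5 CPM in the control libraries and at 108, 96.7 and 89.8 CPM in the knockdown libraries, with a 95% interval of the log2 fold change of −0.05 to 0.31. LSM8 stood at 47.4, 56.3 and 51.2 CPM against 51.8, 47.5 and 49.2 CPM (log2 fold change −0.06, edgeR adjusted p = 0.594), but it was lower in the test on log2(FPKM + 1), at −0.33 with a limma adjusted p of 0.0229. By length-scaled level LSM7, at 309 ± 30.9 FPKM (SD, n = 3) in the control libraries, stood above the rest of the LSM ring. LSM4 followed at 111 ± 6.30 FPKM, and the lowest was LSM3 at 18.8 ± 1.66 FPKM (SD, n = 3). In CPM the order differed. By control mean LSM4 was highest of the ring at 89.7 CPM and LSM6 lowest at 11.5, with LSM3 at 55.8.

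In the U1 snRNP 1 of 3 genes fell. SNRPA encodes the protein that binds a stem-loop of the U1 RNA. SNRPA (chromosome 19, 40750637 to 40765389, plus strand, 6 exons) stood at 76.1, 76.4 and 97.9 CPM in the control libraries and at 57.1, 52.5 and 60.7 CPM in the knockdown libraries. Control C was high, but the other control libraries also lay above every knockdown library. The log2 fold change was −0.56 (SE 0.10, edgeR adjusted p = 0.00132). Its exons overlap those of C19orf54, which stood at 31.7% of its CPM, on the opposite strand by 89 bases. SNRPC, whose protein helps U1 hold the 5′ splice site, stood at 169, 164 and 157 CPM against 156, 135 and 152 CPM (log2 fold change −0.15, edgeR adjusted p = 0.174), without overlap and without passing the test. SNRNP70, which encodes the largest of the U1-specific proteins, stood at 114, 105 and 98.7 CPM against 115, 116 and 99.6 CPM (log2 fold change 0.05, 95% interval −0.13 to 0.24).

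**Figure D3:**
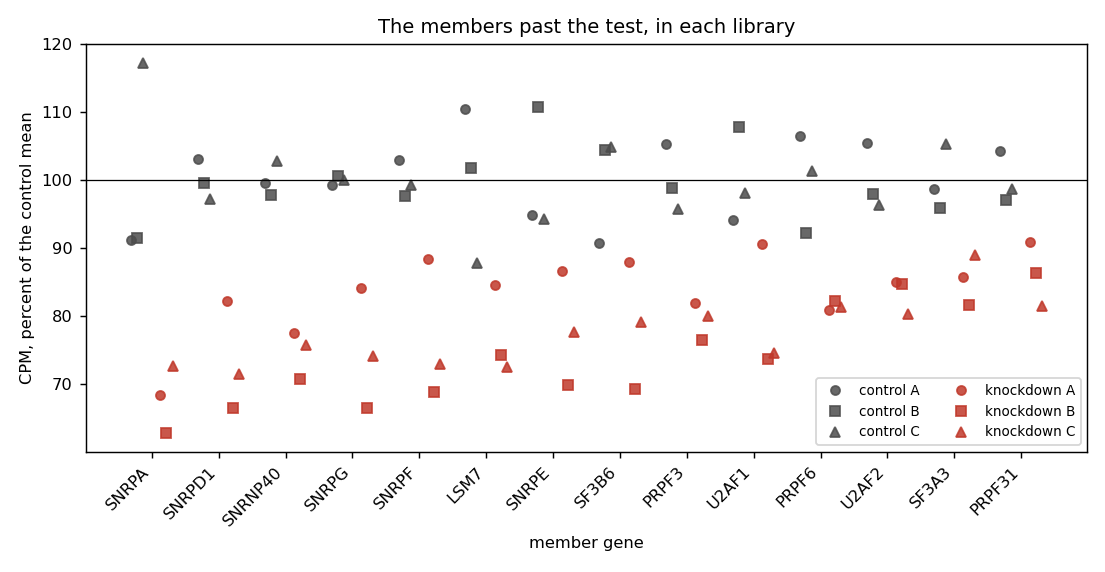
Expression of the 14 genes that fell, in each of the 3 control and 3 knockdown libraries. Values are CPM as a percent of the control mean of each gene, on an axis that does not start at 0. In every one of the 14 genes all knockdown libraries lie below all control libraries, and knockdown A is the highest knockdown library in 11 of them.

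Among the 14 genes of the U2 snRNP and branch-site recognition 4 fell: SF3B6, U2AF1, U2AF2 and SF3A3. All 14 had a negative log2 fold change, with a median of −0.14. U2AF2 binds the polypyrimidine tract and U2AF1 the AG at the 3′ splice site, and SF3B6 sits near the branch-point adenosine. U2AF1 (chromosome 21, 43092956 to 43107587, minus strand, 8 exons) stood at 68.5, 78.4 and 71.4 CPM in the control libraries and at 66.0, 53.7 and 54.2 CPM in the knockdown libraries. Knockdown A lay just under the lowest control library. The fall was 20.3% (log2 fold change −0.33, SE 0.09, edgeR adjusted p = 0.0157), and the adjusted p was 0.0789 without control B and 0.0868 without knockdown B.

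U2AF1L5, a near-identical copy of U2AF1 on the same chromosome, could share its reads, and the table lists it by identifier alone. It stood at 48.1, 37.4 and 35.5 CPM in the control libraries and at 38.2, 41.2 and 45.1 CPM in the knockdown libraries, with overlap (log2 fold change 0.04, edgeR adjusted p = 0.799). Summed over both genes, expression was 117, 116 and 107 CPM against 104, 94.8 and 99.3 CPM, still without overlap. The summed counts did not pass the test (log2 fold change −0.19, SE 0.08, edgeR adjusted p = 0.0737), so the call of U2AF1 is uncertain, and 13 of the 44 genes were lower in that fit.

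U2AF2 (chromosome 19, 55654146 to 55674715, plus strand, 12 exons) stood at 149, 138 and 136 CPM against 119.9, 119.5 and 113 CPM. It fell by 16.6% (log2 fold change −0.26, SE 0.07, edgeR adjusted p = 0.0159, and 0.0762 without control A).

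SF3B6 (chromosome 2, 24067584 to 24076443, minus strand, 4 exons) stood at 119, 136 and 137 CPM in the control libraries and at 115, 90.6 and 103 CPM in the knockdown libraries. Control A was low and knockdown A high, so that those libraries nearly met. Its log2 fold change was −0.34 (SE 0.10, edgeR adjusted p = 0.0146), and the adjusted p was 0.0629 without control B and 0.0833 without knockdown B. SF3A3 (chromosome 1, 37956975 to 37990921, minus strand, 17 exons) stood at 114, 111 and 122 CPM against 99.1, 94.3 and 103 CPM. Its fall was 14.5% (log2 fold change −0.23, SE 0.08, edgeR adjusted p = 0.0331). When any one library other than knockdown C was left out, the call was lost at adjusted p of 0.0532 to 0.128, with log2 fold changes of −0.26 to −0.19.

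The other SF3 genes did not pass the test. SF3B1, the largest subunit of SF3B and the one that clamps the branch-site helix, stood at 205, 219 and 217 CPM in the control libraries and at 183, 207 and 217 CPM in the knockdown libraries (log2 fold change −0.08, 95% interval −0.26 to 0.10). SF3A1, SF3A2, SF3B3, SF3B4 and SF3B5 had log2 fold changes from −0.15 to −0.04 with overlapping groups. SF3B2 (−0.14), SNRPB2 (−0.09), a U2 protein, and U2SURP (−0.18, edgeR adjusted p = 0.0715) had all knockdown libraries below all control libraries without passing. SNRPA1, which encodes the U2 partner of SNRPB2, stood at 94.9, 98.7 and 110.3 CPM against 95.2, 82.6 and 90.6 CPM (log2 fold change −0.18, edgeR adjusted p = 0.117).

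The U4/U6 and U5 tri-snRNP had 4 of its 8 genes lower, SNRNP40, PRPF3, PRPF6 and PRPF31, with a median log2 fold change of −0.20 over the 8. SNRNP40 is a WD-repeat protein of U5. SNRNP40 (chromosome 1, 31259568 to 31296782, minus strand, 10 exons) stood at 103, 101 and 106 CPM in the control libraries and at 80.1, 73.0 and 78.3 CPM in the knockdown libraries. The groups were far apart relative to their spread, and SNRNP40 had the smallest adjusted p of the 44 genes (log2 fold change −0.42, SE 0.07, edgeR adjusted p = 0.000990). PRPF3 and PRPF31 are U4/U6 proteins. PRPF3 (chromosome 1, 150321476 to 150353195, plus strand, 16 exons) stood at 50.5, 47.4 and 45.9 CPM against 39.3, 36.7 and 38.4 CPM, a fall of 20.4% (log2 fold change −0.33, SE 0.07, edgeR adjusted p = 0.00466).

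PRPF6 bridges U5 and U4/U6 in the tri-snRNP. PRPF6 (chromosome 20, 63981135 to 64033100, plus strand, 21 exons) stood at 157, 136 and 149 CPM in the control libraries and at 119, 121 and 119.9 CPM in the knockdown libraries, which lay within 2 CPM of one another. It fell by 18.5% (log2 fold change −0.295, SE 0.08, edgeR adjusted p = 0.0106, and 0.0544 without control A). PRPF31 (chromosome 19, 54115410 to 54131719, plus strand, 14 exons) stood at 47.5, 44.2 and 44.95 CPM against 41.4, 39.3 and 37.1 CPM. Its fall of 13.7% (log2 fold change −0.21, SE 0.08, edgeR adjusted p = 0.0432) was the smallest of the 14. When any one library other than knockdown A was left out, the call was lost at adjusted p of 0.0767 to 0.15, with log2 fold changes of −0.24 to −0.17. Its exons overlap those of TFPT, which stood at 29% of its CPM, on the opposite strand by 266 bases.

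PRPF8, the scaffold of the catalytic centre, was the most highly counted of the 44 genes. It stood at 406, 366 and 417 CPM in the control libraries and at 323, 376 and 347 CPM in the knockdown libraries, with overlap (log2 fold change −0.19, edgeR adjusted p = 0.122). SNRNP200, the helicase that unwinds U4 from U6, stood at 304, 274 and 315 CPM against 258, 308 and 298 CPM (log2 fold change −0.04, 95% interval −0.24 to 0.15). PRPF4, the U4/U6 partner of PRPF3, was nearly level at 39.9, 38.4 and 39.9 CPM against 37.9, 39.0 and 39.4 CPM. The 95% interval of its log2 fold change was −0.17 to 0.13, which does not reach the estimate for PRPF3, but the difference between the genes was not tested. Exons of PRPF4 overlap those of CDC26 on the opposite strand by 208 bases, and CDC26 stood at 98.9% of the CPM of PRPF4. Reads of CDC26 may therefore enter the values of PRPF4. SNRNP27 stood at 37.9, 35.3 and 33.9 CPM against 39.1, 37.2 and 37.4 CPM (log2 fold change 0.09, edgeR adjusted p = 0.403).

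None of the 3 genes of the minor spliceosome, which removes a rare class of introns, passed the test, and these were among the genes with the fewest counts. SNRNP25 stood at 9.27, 7.16 and 6.60 CPM in the control libraries and at 6.68, 5.62 and 6.01 CPM in the knockdown libraries (log2 fold change −0.33, 95% interval −0.61 to −0.05, edgeR adjusted p = 0.0632). Only knockdown A reached into the control range. SNRNP35 and SNRNP48 had log2 fold changes of −0.02 and −0.07, and SNRNP48 had the lowest length-scaled level of the 44 at 3.96 ± 0.527 FPKM (SD, n = 3) in the control libraries. Exons of SNRNP35 overlap those of RILPL1 on the opposite strand by 2063 bases, and RILPL1 stood at 182% of the CPM of SNRNP35. Exons of SNRNP25 overlap those of POLR3K on the opposite strand by 153 bases, and POLR3K stood at 181% of the CPM of SNRNP25. Reads of these neighbours may enter both values. Of the activation factors, PRPF19, a ubiquitin ligase at the centre of the complex that carries its name, stood at 169.7, 159 and 177 CPM against 152, 145 and 146 CPM. The groups did not overlap, but the test was not passed (log2 fold change −0.19, edgeR adjusted p = 0.0692). PRPF38A, which joins at the stage of the B complex, stood at 65.0, 64.5 and 61.6 CPM against 61.5, 59.4 and 64.6 CPM (log2 fold change −0.04).

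The knockdown libraries were not alike across these genes. Knockdown B was the lowest of its group in 24 of 44 genes and in 10 of the 14 that fell, and knockdown A was the highest in 27 of 44 and in 11 of the 14. Without knockdown B, 9 of the 44 genes were called lower and the median log2 fold change was −0.10, and without knockdown A these were 14 and −0.16. Leaving out control B also gave 9. Of all tested genes, 10.2% were lower without knockdown B, 13.1% without knockdown A and 12.2% without control B, against 16.9% with all libraries. All 14 genes kept a negative log2 fold change in all 17 alternative analyses, and 7 passed the threshold in every one: SNRPD1, SNRPF, SNRPG, SNRPA, LSM7, PRPF3 and SNRNP40. The share of all tested genes passing in every alternative was not computed.

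Scaling made a difference to the count of calls. With scaling by library total alone, 23 of the 44 genes were lower, but the median of all tested genes then moved to −0.11 and 4727 genes fell while 1985 rose, against 3171 and 3099 in the analysis reported. Relative to the median of all tested genes, the median of the 44 was −0.13 under both scalings. A change of scaling moves all genes by nearly the same amount, so this value could hardly differ between them. No core snRNP gene was higher under either.

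**Figure D4:**
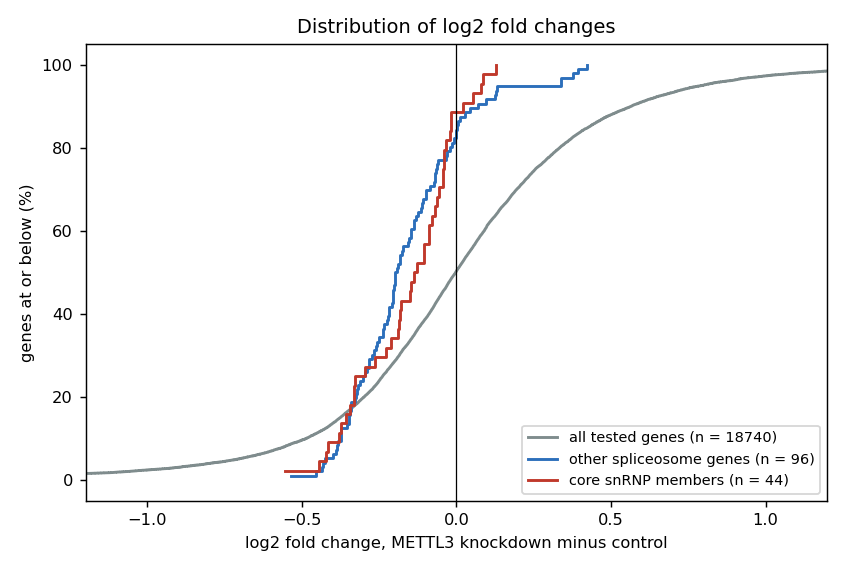
Cumulative share of genes by log2 fold change (knockdown minus control) for the 44 core snRNP genes, 96 other spliceosome genes and all 18740 tested genes. The core snRNP curve lies to the left of that of all genes around its median of −0.13, and it ends at 0.13 where all genes extend far to both sides.

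A further 96 genes of the spliceosome and of snRNP biogenesis, listed by function, were all tested: 42 (43.8%) fell, 5 rose and 49 did not pass, with a median log2 fold change of −0.20. Of all 18740 tested genes, 16.9% fell and 16.5% rose, and the counts of each list below are to be read beside these shares. In the assembly and import of snRNPs, 6 of 20 fell, among them GEMIN6 (−0.39), a subunit of the SMN complex that loads Sm rings, and PHAX (−0.33), the export adaptor of snRNAs. SMN1 (−0.33) also fell, but its near-identical copy SMN2 had −0.01, and reads may have been split between them. In the same list GEMIN8 (0.42), LSM11 (0.39), a ring protein of the U7 snRNP, and SNUPN (0.34), the import adaptor of snRNPs, rose. These are 15% of the list, near the share of all tested genes that rose.

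Of the 10 other tri-snRNP genes 7 fell, including USP39 (−0.39), TXNL4A (−0.35) and SART1 (−0.31), while PPIH (0.38), a cyclophilin of U4/U6, rose. The other U2 and branch-site genes had 5 of 11 lower, including PHF5A (−0.43), an SF3B subunit, SUGP1 (−0.43) and DDX46 (−0.37). The list of the PRPF19 and activated complexes had 11 of 19 lower, including PLRG1 (−0.45), CTNNBL1 (−0.42) and CWC22 (−0.38). The list for the second catalytic step and disassembly had 4 of 8 lower, including DHX8 and SLU7 (both −0.34) and DHX35 (−0.32). The B complex had 4 of 11 lower, including LUC7L (−0.40), IK (−0.37) and MFAP1 (−0.26). In the list headed U6 and 7SK maturation TUT1 (−0.35), SSB (−0.22) and USB1 (−0.20) fell, out of 8. METTL4 (0.34) rose, a gene placed in that list without being a U6 or 7SK maturation factor. Of the 9 other minor-spliceosome genes SCNM1 (−0.54) and ARMC7 (−0.37) fell. These are 22.2% of that list, near the 21.1% of genes of at least 5 CPM that fell.

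Gene structure was described for the 44 from GENCODE 29 on GRCh38. For each gene 1 protein-coding transcript was taken, preferring the basic set, then the best principal-isoform (APPRIS) rank, then the longest coding sequence. Which transcripts the cells expressed was not examined, so the chosen one may differ in length from those counted. The 9 genes whose chosen transcript was shorter than 1000 bases included 5 that fell and had a median log2 fold change of −0.33. U2AF1, whose call is uncertain, is among those 5, and SNRPD1, with a chosen transcript of 4909 bases, is among the longer genes. The 35 longer genes included 9 that fell, with a median of −0.10. Among all tested protein-coding genes 19.9% of the 730 below 1000 bases and 20.6% of the 13090 others fell. The pentamer GGACT, the commonest form of the METTL3 motif, occurred at a median of 0.904 per kilobase of transcript in the genes that fell, 0.954 in the 30 others and 0.945 in all tested protein-coding genes. In the same order, the median number per transcript was 1.5, 2 and 3, and 21.4%, 13.3% and 8.74% of transcripts held none. The median transcript lengths were 1609, 2121 and 3106 bases. The modification itself was not measured.

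Promoters of 39 of the 44 genes were matched in RefSeq (250 bases before to 50 after the start), 12 of them of genes that fell, while LSM6, PRPF3, SF3B3, SNRNP35 and SNRPD1 were not. The ETS motif CCGGAAG, read on both strands, was present in 20 of 39 (51.3%), against 18.1% of promoters of the tested genes and 10.7% of all promoters. It was in 6 of the 12 genes that fell and in 14 of the 27 that did not pass, and it can be seen in the stretches of SNRPG, PRPF6 and SNRNP200, on either strand. The NRF1 motif, read as GCGC, any base, T and GCGC on either strand, like the motifs that follow, was in 8 of 39 (20.5%), against 11.1% of tested promoters. The CCAAT box, in capitals in SNRNP40, was in 17 of 39 (43.6%) against 36.3%, and the GC box GGGCGG in 25 of 39 (64.1%) against 67.8%. The E-box CACGTG was in 3 of 39 (7.69%) against 9.77%, the YY1 motif AAGATGGCG in 3 (7.69%) against 3.62%, and the TATA box TATAAA in 1 (2.56%) against 6.10%. A match is a description of letters, and binding was not measured.

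Copies and neighbours could share reads with these genes. Pseudogenes of 13 of the genes filled 67 rows of the table, of which 15 held any count, and together they reached at most 0.268% of the parent's counts in either group, for SNRPE in the knockdown libraries. U2AF1L5, described with U2AF1, held a far larger share. Exons of 18 of the 44 genes overlap those of another gene, for 16 of them on the opposite strand. Neighbours not named above include XPC at 142% of the CPM of LSM3, MXD1 at 48.1% of that of SNRNP27 and PLEKHJ1 at 45% of that of SF3A2. The sources used here do not say whether counting used strand, so values of genes with such overlaps may include reads of the neighbour.

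**Figure D5:**
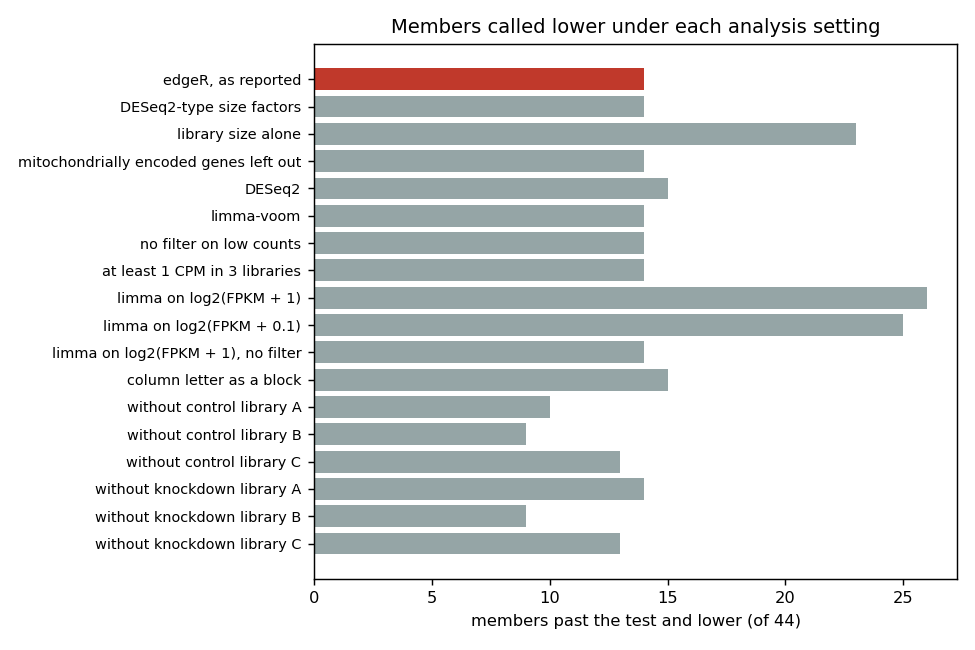
Number of the 44 core snRNP genes called lower under the reported analysis and each of 17 alternatives. The count is 14 as reported, ranges from 9 to 14 when a library is left out, and is 23 to 26 with scaling by library total or with filtered FPKM values. Of all tested genes, 16.9% were lower as reported, 10.2 to 17.4% with a library left out and 24.7 to 25.2% with those last settings.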

How the data were processed

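The 2 groups of 3 libraries of 786-O cells were compared. Counts are whole numbers as deposited by the authors, in 61860 Ensembl gene rows and 6 columns. The authors also deposited FPKM values for the same genes and columns, which are fragments scaled to length and library total. STAR 2.7.10b, Salmon and GRCh38 are named in the submitters' processing notes, with no role stated, and the annotation release and strand setting were not found in the sources. The letters A, B and C of the columns are not tied to the labels' replicate numbers, and 0 other columns of values were present. Within each group, every pair of libraries exceeded sampling noise (chi-square divided by its degrees of freedom was 16.4 to 62.1).

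Counts were used as deposited in R 4.3.3 with edgeR 4.0.16: filterByExpr, TMM scaling, the quasi-likelihood test and Benjamini-Hochberg adjustment at 0.05 over the 18740 genes tested. SE is that of the log2 fold change, and intervals are 95%. With totals of at least 100534896 counts, the spread between libraries limits precision more than counting error. The procedure was tested on simulated data with 200 genes changed, whereas 33.5% of all tested genes were called here. That setting differs from these data, and no conclusion on the calls was drawn from it. Alternatives used limma 3.58.1 and DESeq2 1.42.0, other scalings and filters, log2 of the deposited FPKM plus 1 or 0.1 with and without a filter of 0.5 FPKM in 3 libraries, mitochondrially encoded genes left out, a block, and each library left out in turn. The background of genes of at least 5 CPM and a fit with U2AF1 and U2AF1L5 summed were additions made with the data in view. Gene models came from GENCODE 29 (58308 of the 61860 identifiers found), and promoters from RefSeq on GRCh38.p14.

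The members and lists were chosen with earlier results of these data known. All 44 members are accounted for. Other genes were named if they were METTL3, up to 3 genes with the largest changes past the threshold in each direction of each list, possible sharers of reads, or cell type markers. The wider LSM family in the closing section was picked with its values in view. A marker of the list read out is not reported here.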

Additional observations from a re-analysis of the deposited data

How the results depend on the processing

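No core snRNP gene changed the sign of a called difference under any of the 17 alternatives or with the counts of U2AF1 and U2AF1L5 summed, which was added after the data were examined and gave 13 lower genes, and none was called higher. With scaling by library size alone, 25.2% of all tested genes were called lower and 1985 genes higher. Of the 44 core snRNP genes, 23 were then lower and the median log2 fold change was −0.24. By role these were 2 genes of U1, 9 of U2 and the branch site, 1 of the minor spliceosome and 1 activation factor beside the Sm, LSM and tri-snRNP genes, and 3 of the 96 other spliceosome genes were higher. With limma on log2(FPKM + 1), 1588 genes were higher, 26 core snRNP genes were lower and the median was −0.24, with 2 genes of U1, 10 of U2 and the branch site, 2 of the LSM ring, 1 of the minor spliceosome and 1 activation factor, and 1 other spliceosome gene was higher. With limma on log2(FPKM + 0.1), 1568 were higher, 25 were lower and the median was −0.24, with 2 of U1, 9 of U2, 2 of the LSM ring, 1 of the minor spliceosome and 1 activation factor, and 1 other spliceosome gene was higher. Without a filter on FPKM, 1027 genes were higher, the median was −0.24 and 0 other spliceosome genes were higher by limma on log2(FPKM + 1). There the call of SF3B6 was lost at an adjusted p of 0.054 with a log2 fold change of −0.46, and U2SURP was called lower at 0.0196. Over all tested genes, 24.8% were lower by limma on log2(FPKM + 1), 24.7% on log2(FPKM + 0.1) and 7.16% without the filter. In that order the median over all tested genes was −0.094, −0.115 and −0.0095. Relative to it, the median of the 44 was −0.145, −0.129 and −0.23. Of genes called higher or lower, 49.4% were higher as reported and 29.6% with library size alone. Without the filter on low counts 1 minor-spliceosome gene, SNRNP25, was called lower (edgeR adjusted p = 0.0266), and the call of PRPF31 was lost at 0.0707 with a log2 fold change of −0.21. DESeq2 called 15 of the 44 lower, adding U2SURP at an adjusted p of 0.0413. Of all the genes it tested, 9.84% were lower.

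Leaving out 1 library at a time, 9 to 14 of the 44 genes were lower, with a median log2 fold change of −0.16 to −0.10. Of all tested genes 1959 to 3324 were lower and 2053 to 3265 higher. These fits gave 1 to 4 lower genes of U2 and the branch site, 2 to 4 of the tri-snRNP and 0 to 1 of the minor spliceosome, and 23 to 39 lower and 2 to 5 higher among the other spliceosome genes. The fewest calls of all tested genes, in both directions, came without knockdown B. The most came without knockdown C, at 3324 lower and 3265 higher, against 3171 and 3099 with all libraries. These fits also hold fewer libraries, and the causes of the differences in calls were not tested. With the column letter as a replicate block, 15 of the 44 were lower, adding SNRNP25 of the minor spliceosome (1 gene, edgeR adjusted p = 0.0234). Over all tested genes, 19% were lower in that fit. Deviations from the group mean correlated at 0.06, −0.09 and 0.31 between libraries of the same letter, so the letters were not taken to pair the libraries. Standard errors of 0.07 to 0.13 set the size of difference that could be seen.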

Other observations

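LSM1 takes the place of LSM8 in the cytoplasmic decay ring, and it was not among the core snRNP genes. It stood at 15.1, 16.2 and 17.1 CPM in the control libraries and at 11.5, 9.65 and 12.1 CPM in the knockdown libraries, without overlap. LSM1 fell by 31.4% (log2 fold change −0.54, SE 0.10, edgeR adjusted p = 0.00130). Over the 17 alternatives its log2 fold change ran from −0.66 to −0.45 with adjusted p of at most 0.0242. LSM8, its nuclear counterpart, had −0.06 and ran from −0.34 to 0.00358 over the same alternatives, called lower in 2 of them, both limma fits on FPKM values. A test of the difference between the 2 genes was not run. Of the other LSM proteins, LSM12 (0.07), LSM14A (−0.10) and LSM14B (0.09) did not pass.

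SNRPN, a close paralogue of SNRPB, stood at 92.6 ± 2.30 CPM in the control and 83.8 ± 7.20 CPM in the knockdown libraries (SD, n = 3), with overlap (log2 fold change −0.14, edgeR adjusted p = 0.182). U2AF1L4, a paralogue of U2AF1, had a log2 fold change of −0.09 (edgeR adjusted p = 0.551).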
